A study of Chlorocebus sabaeus with 12 samples.

Results

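The comparison described here is between COS-1 cells carrying the S154D form of human FXR and COS-1 cells carrying the S154A form, both given chenodeoxycholic acid (CDCA). It rests on 6 of the 12 arrays of the study, the 3 S154D arrays and the 3 S154A arrays with CDCA, chosen by their titles. COS-1 is a fibroblast-like kidney cell line of the African green monkey. In every group the cells had transiently expressed the mutant receptor for 24 h when CDCA (written in the labels as 50 mM) or, in the other 6 arrays, 0.1% DMSO was added for a further 24 h. There is no group with wild-type FXR or without transfection, so each difference is between the mutants. The labels do not say that replicates came from separate cultures, and the p-values then measure only the spread between these samples, which may be technical. In a transiently transfected culture, fewer receptor-bearing cells and less RNA per cell cannot be told apart.

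FXR, encoded by NR1H4, is the nuclear receptor for bile acids and binds DNA mostly together with RXR. When a bile acid such as CDCA occupies it, FXR raises genes that bind, export and signal the bile acid load: FABP6, a cytosolic bile acid binder of the ileum, OSTalpha and OSTbeta, which together form a bile acid exporter, and the hormone FGF19, by which the gut tells the liver to make less bile acid. The serine mutated here has been described as a phosphorylation site of protein kinase C; alanine at that position cannot be phosphorylated, and aspartate carries a negative charge that is often used to stand in for a phosphate.

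Signal was read with human probes of 60 bases, so a probe reports the monkey transcript, or for NR1H4 also the transfected human one, as far as it matches. The first 30 bases of 7 probes are shown because the receptor check, the largest falls in bile acid genes and the largest rises rest on them. They are printed 5′ to 3′ as in the array design, with G and C in capitals, since the GC content of the probe moved with the difference between the mutants. The coordinates are those of human build hg17 in the scanner files; exon and UTR annotation was not used here.
NR1H4, chr12:99459659-99459718, plus strand: CtGaGatGCtGatGtCatGGaGaGtaaaCG
FABP6, chr5:159591816-159594421, plus strand: CaaGGaaaGCaaCataCaGaCaatGGGGGG
FGF19, chr11:69223092-69223151, minus strand: GGaCGtGCttCtaCaaGaaCaGtCCtGaGt
OSTalpha, chr3:197448296-197448355, plus strand: aCGaatGtaCtaCCGaaGGaaaGaCCaCaa
RBP4, chr10:95341659-95341718, minus strand: tCaGttCCCataaaaCCttCattaCaCata
CAMK2N2, chr3:185461002-185461061, minus strand: CCCGGGaGGCGGaGGCGCGGGGGaGGaGGC
FLT3, chr13:27475993-27476052, minus strand: CGtCtGCGtttaCtCttGttttCaaaGGGa
The FABP6 probe covers a stretch of the genome longer than itself, so it lies across an exon junction. Over the whole probe the GC content was 80.0% for CAMK2N2, against 36.7% for FLT3 and 41.7% for RBP4.

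Values are log2 of the background-subtracted intensity less the 75th percentile of the array, so that 0 is the level of that percentile; levels of different probes are not comparable. Between 61.6% and 73.4% of the spots on each of the 6 arrays exceeded background clearly, and the 75th percentile lay between 1235 and 1971 intensity units. Pearson correlations between arrays were 0.985 to 0.994 within S154A, 0.977 to 0.993 within S154D and 0.973 to 0.99 between the mutants. The 12 arrays lay on 4 slides; S154A arrays 1, 2 and 3 were on slides 3, 4 and 1, and S154D arrays 1, 2 and 3 on slides 2, 3 and 2, so only slide 3 held both groups with CDCA. Slide 4 was scanned on another day.

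The amount of receptor transcript did not separate the groups. NR1H4 signal was 7.46, 7.73 and 7.59 with S154A and 7.71, 7.49 and 7.49 with S154D, so the ranges overlapped. The fitted log2 difference, S154D minus S154A, was -0.03 (SE 0.15, 95% interval -0.36 to 0.31, adjusted p = 0.919 in limma). The probe does not read the mutated codon, so it checks the level of the receptor and not which mutant was present. RXRA, the partner receptor, differed by -0.22 (95% interval -0.61 to 0.16, adjusted p = 0.456), and its second probe by -0.07. RXRB differed by -0.57 (95% interval -1.04 to -0.10, adjusted p = 0.15), with S154D array 1 at -0.12 inside the S154A range of -0.28 to 0.13; without that array the difference was -0.83 and the adjusted p 0.0437. RXRG was not tested, since it was well above background on only 1 of the 12 arrays. None of the 21 tested members of a list of FXR, its partners and its coactivators and corepressors was called. Of all genes tested 0.403% were called, so 0 of 21 is near that share. It does not show equal levels of these genes.

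Cells with S154D had lower transcript levels than cells with S154A at 67 genes under CDCA and higher levels at 15. A gene is called here at a Benjamini-Hochberg adjusted p under 0.05, and the 82 called genes were 0.403% of the 20357 tested; calls lower in S154D were 0.329% and calls higher 0.0737%. The falls were also the larger changes: 36 of the 67 lower genes and 6 of the 15 higher genes differed by 2-fold or more. The median log2 difference was -1.04 over the genes called lower and 0.90 over those called higher, against 0.06 over all genes tested. The 3 S154D values and the 3 S154A values did not overlap in 5807 of the 20357 genes tested, nor in the 82 called genes, where a small p makes this likely. In all, 4811 genes had an unadjusted p under 0.05, 3231 of them higher and 1580 lower in S154D.

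**Figure D1:**
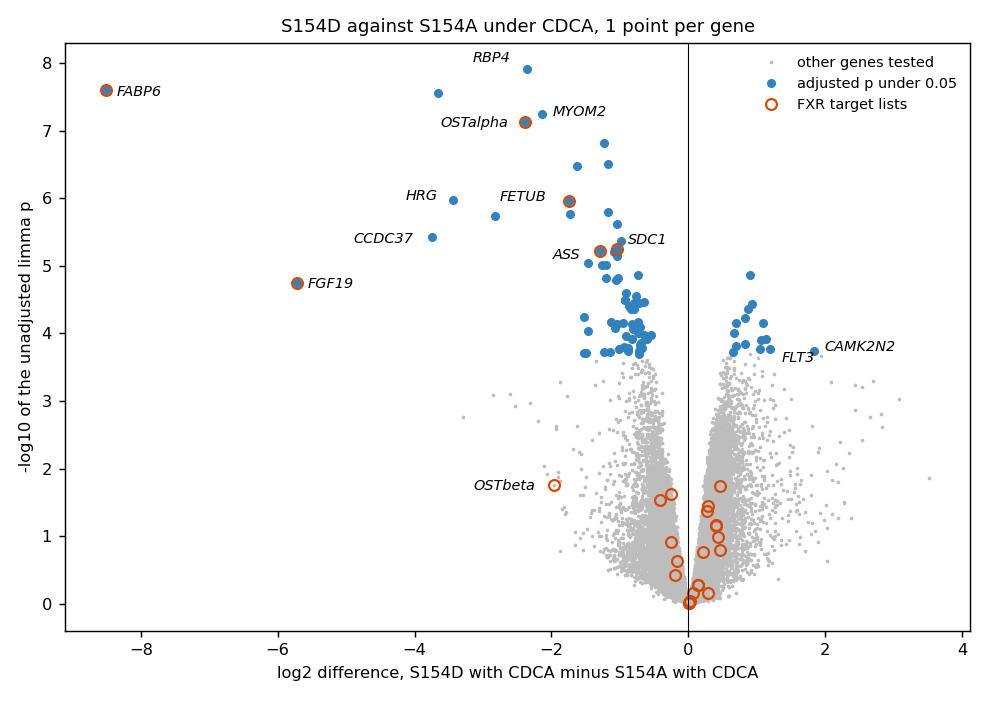
Each point is 1 of the 20357 genes tested; the horizontal axis is the log2 difference between S154D and S154A under CDCA and the vertical axis the negative log10 of the unadjusted limma p. Blue points are the 82 called genes, orange rings the tested members of the FXR target lists; FABP6 at -8.51 and FGF19 at -5.72 lie far to the left, while no ringed gene is called on the right.

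The number of calls moved with single arrays and with the slide. It was 48 without S154A array 2, 19 without S154A array 3, 265 without S154D array 1, 34 without S154D array 2 and 25 without S154D array 3. Of the 82 genes, 19 were called in each of the 6 fits that leave out 1 of these arrays, all of them lower in S154D. With slide as a fixed block 3 genes were called, RBP4, MYOM2 and OSTalpha, all lower; with slide as a random block 71 were called. On slide 3 alone, where S154D array 2 stood against S154A array 1 and no test is possible, OSTalpha differed by -2.64, RBP4 by -2.51, SDC1 by -1.08 and CAMK2N2 by 1.64. Quantile normalisation gave 124 lower and 79 higher calls, and the uncentred values 9 lower and 0 higher. Median centring moved the median difference of all genes to 0.12.

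Probe GC content moved with the difference between the mutants. Across the 20357 genes, which are not independent replicates, the Spearman correlation of the log2 difference with probe GC was -0.39 under CDCA and 0.31 under DMSO. The median difference under CDCA went from 0.35 for probes under 35% GC to -0.23 for probes of 60% or more. Taken singly, S154D arrays 1, 2 and 3 gave correlations of -0.13, -0.41 and -0.54 against the mean of the S154A arrays. The S154A arrays also differed among themselves. In the deviation of each array, the correlation was -0.33, 0.22 and 0.04 for S154A arrays 1, 2 and 3 with CDCA. For S154D arrays 1, 2 and 3 with CDCA it was -0.16, -0.47 and -0.61. The median probe GC was 50.0% over genes called lower and 40% over genes called higher, against 45% over all genes. After a correction of each array for probe GC the correlation was 0.01, and 75 genes were called; these included 47 of the 67 lower genes and 5 of the 15 higher ones. The part of probe GC in single calls below 2-fold was not tested; among the lower genes, 33 of 36 with a 2-fold difference and 14 of 31 with a smaller one were called after the correction.

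**Figure D2:**
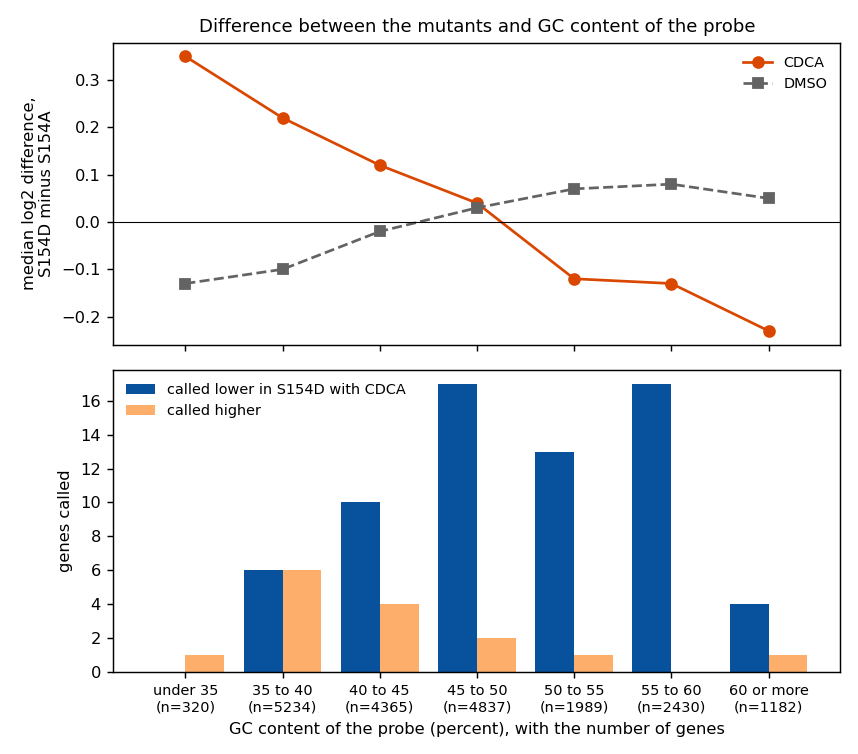
The upper panel plots the median log2 difference between S154D and S154A over genes in 7 classes of probe GC content, in CDCA (orange) and DMSO (grey); the lower panel counts genes called lower and higher under CDCA in each class. The median under CDCA declines from 0.35 to -0.23 while that under DMSO goes from -0.13 to 0.05. The class from 35% to 40%, with 5234 of the 20357 genes, holds 6 of the 15 higher calls and 6 of the 67 lower ones.

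Genes that FXR is known to control included the largest falls, although most of them were not called. Of 42 members of 5 lists of FXR targets 27 could be tested, of which 6 were called lower in S154D and 0 higher, against a background of 0.329% of all genes called lower. Their median log2 difference was 0.01, against 0.06 over all genes: 12 estimates were negative and 15 positive. The 6 called were FABP6, OSTalpha, FGF19, ASS, SDC1 and FETUB. The lists were chosen with earlier results of these data known, and FGF19 passed the filter only through the S154A group with CDCA. The count of 6 beside the background is therefore a description and not an independent test. The count of 6 became 3 when the fit used the 6 arrays alone, 3 on the uncentred values and 1 with slide as a fixed block, and it stayed at 5 or 6 when any 1 of the 6 arrays was left out.

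Among the bile acid binding and transport genes, FABP6 separated the mutants most widely. Its signal with S154A was 2.58, 2.53 and 2.45, and with S154D -4.75, -6.02 and -7.20. The S154A arrays were tightly grouped, whereas the S154D arrays were spread out and dim, with 2 of 3 well above background. The fitted difference was -8.51 (SE 0.57, 95% interval -9.77 to -7.25, adjusted p = 0.000191), and its size depends on the dim S154D readings (-6.70 with the normexp background correction, whose offset of 50 compresses differences of dim probes). It was -8.60 on slide 3 alone and -8.42 after the GC correction, and the adjusted p was 0.0536 with slide as a fixed block.

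OSTalpha, the larger subunit of the basolateral bile acid exporter, was detected on all 6 arrays. Its signal was 3.17, 3.01 and 2.92 with S154A and 0.97, 0.53 and 0.49 with S154D. The difference was -2.38 (SE 0.18, 95% interval -2.77 to -1.98, adjusted p = 0.000301), 5.19-fold lower, and a second probe gave -2.09. OSTalpha stayed called with slide as a fixed block (-2.52, adjusted p = 0.0491). OSTbeta, its partner subunit, was at -5.26, -4.68 and -5.09 with S154A and -5.65, -7.04 and -8.22 with S154D. Only 1 of the 3 S154D arrays read it well above background, and the difference of -1.96 (SE 0.69, 95% interval -3.49 to -0.43) was not called (adjusted p = 0.139), though the groups did not overlap. ABCC2 and ATP8B1, canalicular transporters of organic anions and phospholipids, each differed by 0.01 with adjusted p of 0.99 and 0.978.

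FGF19 was the only called member among the signalling and regulatory targets. Its signal was -1.22, -1.31 and -0.91 with S154A and -4.92, -8.26 and -7.44 with S154D, where only array 1 was well above background. The difference was -5.72 (SE 0.76, 95% interval -7.42 to -4.03, adjusted p = 0.0124). FGF19 was well above background on all arrays of the S154A group with CDCA only, so it was tested because it was high there. The size of its difference rests mostly on readings not well above background: with the normexp correction it was -3.11. A second FGF19 probe was well above background on all 3 S154A arrays and 0 of 3 S154D arrays. The call was lost without S154A array 3 (-5.60, adjusted p = 0.0822) and without S154D array 3 (-5.44, adjusted p = 0.0769). It was lost too without slide 4 (adjusted p = 0.0594) and with slide as a fixed block (adjusted p = 0.181). Of 6 genes for the receptors and coreceptors of FGF19, 4 were tested and none was called, where 0.403% of all genes tested were. FGFR4, the main hepatic receptor of FGF19, differed by -0.63 (adjusted p = 0.102). The nuclear receptor PPARA, INSIG2, which restrains cholesterol synthesis, TRIB3, PDK4, ICAM1 and NOS2A differed by -0.17 to 0.46 and none was called.

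**Figure D3:**
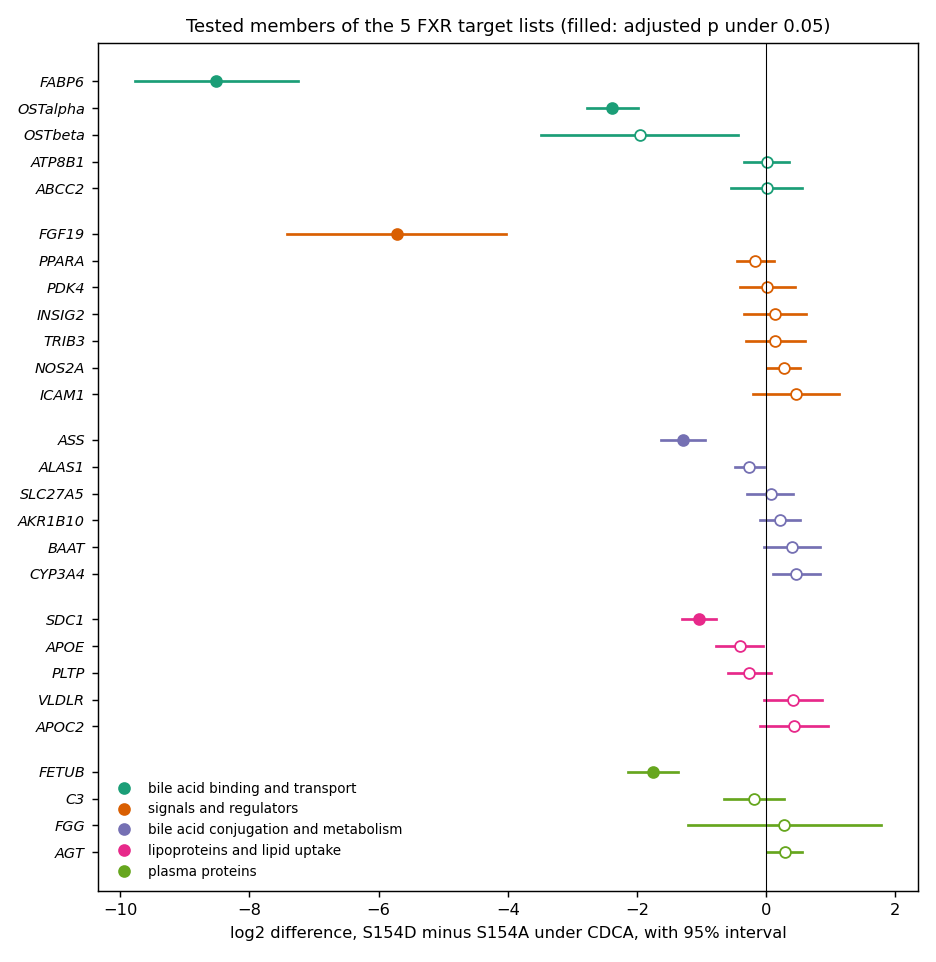
The 27 tested members of the 5 FXR target lists are placed by their log2 difference between S154D and S154A under CDCA, with 95% intervals; filled dots are called. FABP6, OSTalpha, FGF19, ASS, SDC1 and FETUB are filled, all to the left of 0, and OSTbeta at -1.96 is open with a wide interval, while most others lie near 0.

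In 3 further target groups 1 gene each was called. ASS, argininosuccinate synthase of the urea cycle, was at 1.48, 1.45 and 1.75 with S154A and 0.54, 0.25 and 0.02 with S154D. The S154D values were all below the S154A values, by -1.29 on average (SE 0.15, adjusted p = 0.00679). SDC1, the heparan sulphate proteoglycan syndecan 1, which takes part in lipoprotein uptake, was at 4.56, 4.46 and 4.55 with S154A and 3.42, 3.48 and 3.56 with S154D, a difference of -1.04 (SE 0.12, adjusted p = 0.00676) that its second probe gave as -1.36. FETUB, a plasma protease inhibitor of the cystatin family, was at -3.04, -3.32 and -3.0 against -4.70, -4.97 and -4.95, a difference of -1.75 (SE 0.17, adjusted p = 0.00224) that was -0.99 with the normexp correction. The calls of ASS, SDC1 and FETUB were lost with slide as a fixed block, at adjusted p of 0.157 each, and those of ASS and SDC1 also when only the 6 arrays were fitted. Other members of these groups stayed on the uncalled side: CYP3A4, a drug and bile acid hydroxylase, differed by 0.46 (adjusted p = 0.139), BAAT, which conjugates bile acids to amino acids, by 0.40 (adjusted p = 0.245), APOE by -0.41 (adjusted p = 0.167) and VLDLR by 0.41 (adjusted p = 0.246).

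Several textbook targets of hepatic FXR gave no signal to compare. NR0B2, the repressor SHP, was well above background on 1 S154A array and 0 S154D arrays, and ABCB11, the canalicular bile salt export pump, on 0 and 1. CYP7A1, the rate-limiting enzyme of bile acid synthesis, was well above background on 0 of the 12 arrays, and the ileal bile acid importer SLC10A2 on 1. These genes were left out of the fit. Of 16 bile acid synthesis genes 9 were tested and 0 were called; the widest estimate was that of HSD3B7, at -0.60 (adjusted p = 0.17). Of 11 uptake and other efflux genes 5 were tested and 0 were called, with SLCO2B1, an organic anion importer, at 1.08 (adjusted p = 0.091). Of all genes tested 0.403% were called, so 0 calls in lists this small are near that share.

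Outside the target lists, 2 plasma proteins of liver were among the largest falls. RBP4, the retinol carrier of plasma, was at 1.64, 1.70 and 1.54 with S154A and -0.48, -0.86 and -0.85 with S154D. The difference was -2.36 (SE 0.15, 95% interval -2.68 to -2.03, adjusted p = 0.000191), 5.12-fold lower, and it stayed called with slide as a fixed block (adjusted p = 0.015). HRG, histidine-rich glycoprotein, was at -2.53, -3.18 and -3.12 with S154A and -6.31, -6.32 and -6.50 with S154D. No S154D array read HRG well above background, which makes it at least 9.77-fold lower against the dimmest signal well above background (adjusted p = 0.00224); with the normexp correction its log2 difference was -1.78, a smaller fold than this bound. The other 13 tested plasma proteins outside the FXR lists were not called, from ITIH1 at -0.94 (adjusted p = 0.47) to APOH at 0.58 (adjusted p = 0.09).

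The remaining large falls came from genes of varied function. CCDC37, a ciliary coiled-coil protein, was at -4.88, -4.56 and -4.58 with S154A and -8.30, -8.36 and -8.57 with S154D. No S154D array read it well above background, and it was at least 2.95-fold lower (adjusted p = 0.00516). As with FGF19 and HRG, it entered the test only through the S154A group with CDCA. Its p therefore sets that group against readings not well above background. With the normexp correction its log2 difference was -1.0, below that bound. MYOM2, a protein of the muscle M band, was at -2.71, -2.88 and -3.0 against -5.03, -4.75 and -5.21, 4.40-fold lower (adjusted p = 0.000293; log2 difference -2.14, or -1.32 with the normexp correction), and it was called with slide as a fixed block too (adjusted p = 0.0491). RBP4, OSTalpha and MYOM2 were called under each of the tested alternatives to which a test applied.

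DLX3, a homeobox transcription factor of placenta and skin, differed by -1.73 (adjusted p = 0.00289) with 1 of 3 S154D arrays well above background, but its second probe, well above background on 1 S154A array and 3 S154D arrays, gave 0.67; the mean of both probes differed by -0.53 (adjusted p = 0.177). SAMD11 differed by -1.63 (adjusted p = 0.000866) and MEGF6 by -1.47 (adjusted p = 0.00872), with -2.10 at a second MEGF6 probe. WDFY4 at -1.53 (adjusted p = 0.0276), C1orf170 at -1.49 (adjusted p = 0.0491) and the hair keratin KRT86 at -1.46 (adjusted p = 0.0352) completed the 15 largest falls with a gene symbol. MEGF6 was not called without S154A array 3 (adjusted p = 0.0579). WDFY4, C1orf170 and KRT86 were called in only 1 of the 6 fits that leave out an array, the one without S154D array 1, with adjusted p up to 0.131, 0.213 and 0.141. Of the genes called lower, 53 had a gene symbol in the array annotation.

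The smaller falls, which fell outside the naming rule and were picked out here after their values were seen, ran from TMEM142B, a calcium channel of the ORAI family, at -1.26 to the lysosomal nuclease DNASE2 at -0.55. BAIAP2L2, a protein that bends membranes, was at -0.68, -0.54 and -0.82 with S154A and -1.83, -1.94 and -1.96 with S154D. The difference was -1.23 (SE 0.10, adjusted p = 0.000523), with an adjusted p of 0.0536 when slide was a fixed block; its relative BAIAP2L1 differed by -0.91 (adjusted p = 0.0169). PPP1R1A, an inhibitor of protein phosphatase 1, was at 0.22, 0.01 and 0.24 against -0.98, -0.95 and -1.12, a difference of -1.17 (SE 0.10, adjusted p = 0.000866). The groups were apart for both genes, and both probes were well above background on all 6 arrays. Also called lower were the growth factor PGF, of the VEGF family, at -1.15 (adjusted p = 0.0483), the activin subunit INHBB at -0.88 (adjusted p = 0.0483) and the natriuretic peptide NPPC at -0.83 (adjusted p = 0.0395). The list went on with the MAP kinase phosphatase DUSP9 at -1.07 (adjusted p = 0.0325) and RGS16, which shortens G protein signals, at -0.79 (adjusted p = 0.02). It also held FTCD, an enzyme of histidine breakdown, at -0.94 (adjusted p = 0.0467), the retinal reductase DHRS3 at -0.81 (adjusted p = 0.0325) and the glutamine carrier SLC1A5 at -0.91 (adjusted p = 0.038). After the GC correction TMEM142B, DNASE2, DUSP9, INHBB, NPPC, FTCD and SLC1A5 were no longer called, with adjusted p from 0.0609 to 0.102. PGF, RGS16 and DHRS3 stayed called at up to 0.0312. TMEM142B had 3 kept probes and PPP1R1A and RGS16 had 2 each, of which only the brightest is given here. The probe with the widest fall that carries no gene symbol in the array annotation, A_32_P232437 on chromosome 10, was at -1.41, -1.55 and -1.46 against -4.94, -5.00 and -5.44, a difference of -3.66 (SE 0.25, adjusted p = 0.000191).

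**Figure D4:**
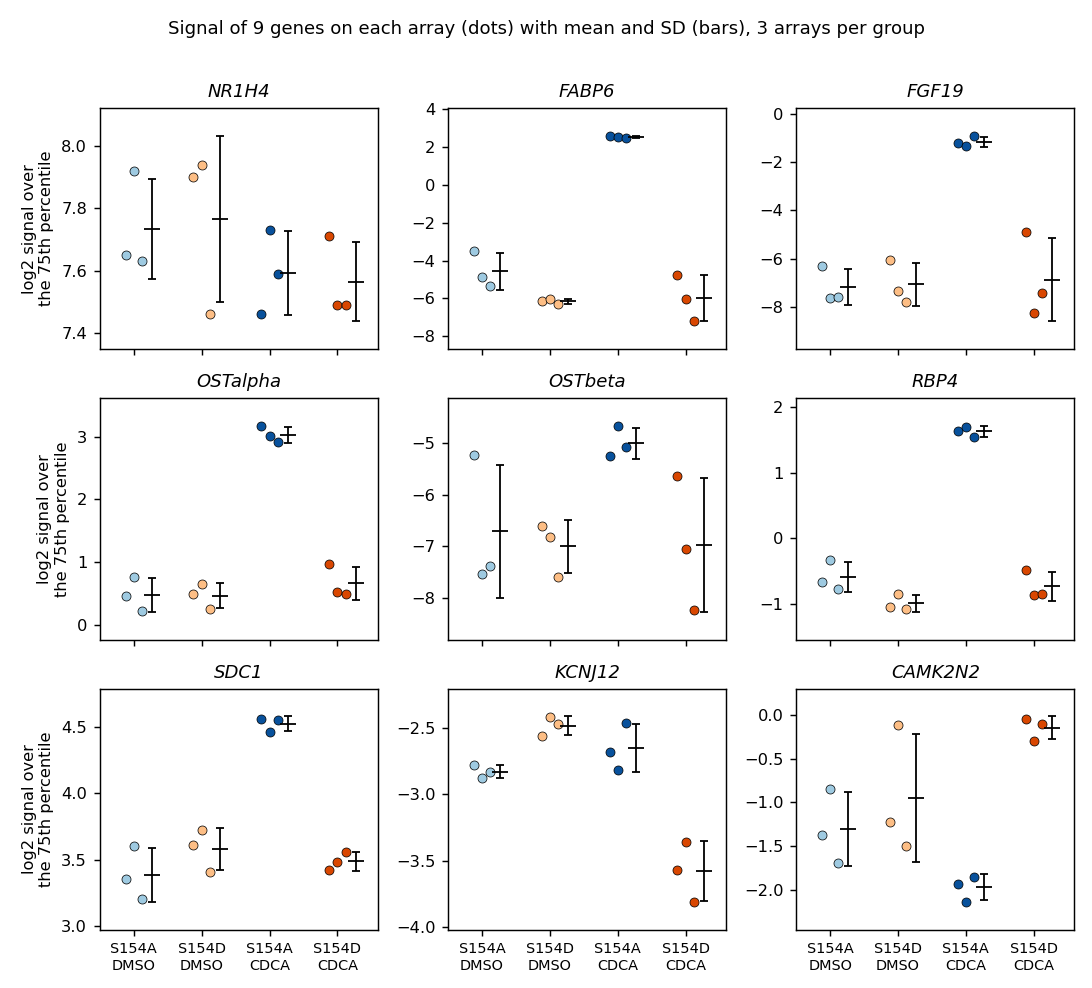
Dots are the log2 signals of 9 genes on each of the 12 arrays, in 4 groups of 3 (pale, DMSO; dark, CDCA; blue, S154A; orange, S154D), and bars beside them are the mean and SD; the vertical scales differ. NR1H4 overlaps between the mutants under CDCA, FABP6, FGF19, OSTalpha, RBP4 and SDC1 are high on the S154A arrays with CDCA alone, KCNJ12 is low on the S154D arrays with CDCA, and CAMK2N2 is low in S154A and high in S154D with CDCA.

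Rises in S154D were fewer and smaller. Only 6 of the 15 genes called higher carried a gene symbol. CAMK2N2, an inhibitor of the calcium/calmodulin kinase CaMKII, was at -1.93, -2.14 and -1.85 with S154A and -0.05, -0.30 and -0.10 with S154D. The groups did not overlap, and the difference was 1.83 (SE 0.32, 95% interval 1.11 to 2.54, adjusted p = 0.0483). FLT3, a receptor tyrosine kinase of blood progenitors, was at -4.70, -4.39 and -4.52 against -3.65, -2.96 and -3.39, a difference of 1.2 (SE 0.21, adjusted p = 0.048). The others were MRPL44, a mitochondrial ribosomal protein well above background on 2 of 3 S154A arrays, at 0.93, the Fc receptor FCGR3A at 0.90, C1orf118 at 0.70 and TAF1A, a subunit of a factor for RNA polymerase I, at 0.67. After the GC correction FLT3 (adjusted p = 0.0982) and C1orf118 (adjusted p = 0.0769) were not called, while CAMK2N2 rose to 2.14 (adjusted p = 0.0312). No gene called higher stayed called when each array was left out in turn: the highest adjusted p was 0.194 for CAMK2N2, 0.207 for FLT3, 0.0817 for MRPL44, 0.0649 for FCGR3A, 0.157 for C1orf118 and 0.194 for TAF1A.

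Without bile acid the mutants were not separated by the same test. On the other 6 arrays, S154D minus S154A in DMSO gave 0 called genes in limma (0% of 20357), with 880 at an unadjusted p under 0.05 and a smallest adjusted p of 0.997; the other fits and scalings gave 0 as well, except 1 gene on the uncentred values. Over the 67 genes called lower under CDCA the median difference in DMSO was 0.11, and 23 of them were lower in S154D, or 34.3% against 50.0% of all genes. Over the 15 called higher it was -0.22. OSTalpha differed by -0.02 in DMSO and RBP4 by -0.40. FGF19 was well above background on 0 S154A arrays and 1 S154D array in DMSO, so the mutants could not be compared there. FABP6 differed by -1.59 in DMSO (adjusted p = 0.997), from -3.47, -4.89 and -5.32 with S154A and -6.16, -6.01 and -6.29 with S154D, of which 1 was well above background. Across all genes the differences in CDCA and in DMSO, which share no array, had a Pearson correlation of -0.34. The difference fell with probe GC in CDCA and rose with it in DMSO (Spearman -0.39 and 0.31). Median probe GC was 50% over genes called lower and 40% over those called higher, against 45% over all genes. The part of probe GC in these opposite signs was not tested.

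The difference of the differences was called at 28 genes, 0.138% of those tested: 19 were lower and 9 higher in S154D under CDCA relative to DMSO. The 19 were all among the genes called lower under CDCA, and 4 of the 9 were among those called higher. This overlap is partly built in, since both tests use the same CDCA arrays and the same estimate of the spread. The widest was FABP6 at -6.92 (SE 0.80, adjusted p = 0.0213), followed among genes with a symbol by HRG at -3.15 (adjusted p = 0.0462), OSTalpha at -2.36 (adjusted p = 0.0213), RBP4 at -1.95 (adjusted p = 0.0213) and DLX3 at -1.89 (adjusted p = 0.0371). FETUB at -1.80, ASS at -1.57 and SDC1 at -1.23 were called as well. FGF19 and CCDC37 were not (adjusted p = 0.0631 and 0.0532). The sizes for HRG, FGF19 and CCDC37 include 3 groups each that were not read well above background on all arrays, and that of FABP6 includes both S154D groups in the same way. FBXO5, which restrains the anaphase-promoting complex, at 1.57, HMG4L at 1.21 and the cap-binding protein NCBP1 at 0.91 were the called rises with a symbol; under CDCA alone their differences of 0.90, 0.67 and 0.51 were not called (adjusted p = 0.0501, 0.0554 and 0.0594). This count was not stable: it was 66 without S154A array 1 with CDCA, 14 without S154D array 1 with CDCA, 0 without any 1 of the other 4 CDCA arrays, and 0 to 6 without 1 of the DMSO arrays. It was 35 after the GC correction and 0 with slide as a fixed block. Quantile normalisation gave 74 higher and 48 lower, median centring 1 higher and 8 lower, and the uncentred values 1 and 1.

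**Figure D5:**
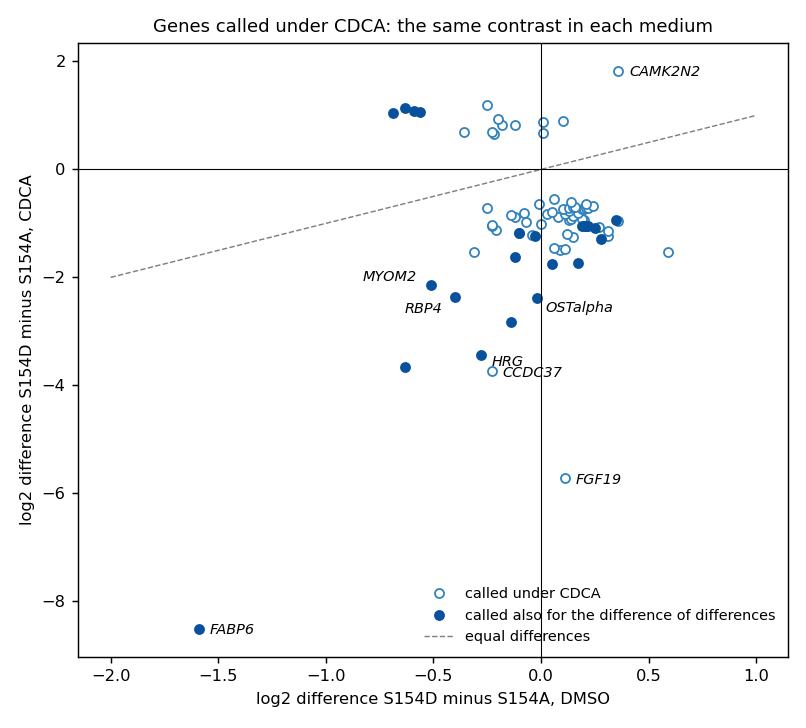
Each of the 82 genes called under CDCA is placed by its log2 difference between S154D and S154A in DMSO (horizontal) and in CDCA (vertical); filled points were also called for the difference of the differences, and the dashed line marks equal differences. FABP6 is the only point far to the left in DMSO, at -1.59, and FGF19 lies at -5.72 in CDCA, with readings not well above background on most DMSO arrays.

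Each group with CDCA can be set beside its own DMSO arrays, with the caution that these responses share their CDCA arrays with the comparison. For the 67 genes lower in S154D the median CDCA response was 0.73 with S154A and -0.36 with S154D, and for the 15 higher genes it was -0.50 and 0.76, against -0.04 and -0.01 over all genes. At an adjusted p under 0.05 in limma, 27 of all 20357 genes responded with S154A and 2077 with S154D. Among the 67 lower genes 26 responded with S154A and 26 with S154D, and among the 15 higher genes 0 and 11. The cause of the larger count with S154D was not tested. Among large falls read well above background on all 12 arrays, OSTalpha responded by 2.56 with S154A and 0.20 with S154D, RBP4 by 2.21 and 0.26, MYOM2 by 1.81 and 0.18, FETUB by 1.71 and -0.10, and SDC1 by 1.14 and -0.09. Also read well above background on all 12 arrays, SAMD11 responded by 1.22 and -0.29 and MEGF6 by 1.22 and -0.36. C1orf170 responded by 1.17 and -0.41 and KRT86 by 1.33 and -0.19. FABP6 responded by 7.08 with S154A, and with S154D it was well above background on 1 DMSO and 2 CDCA arrays. The responses of FGF19 and HRG with S154D compare readings mostly not well above background. For ASS the responses were 0.73 and -0.83, and for DLX3 0.87 and -1.02. KCNJ12 and TIMM44, picked out after their values were seen, had the reverse layout. The potassium channel KCNJ12 was at -2.68, -2.82 and -2.46 with S154A and -3.57, -3.36 and -3.81 with S154D under CDCA. It responded by 0.18 and -1.10 and the mitochondrial import protein TIMM44 by 0.07 and -0.87. The calls of KCNJ12 (-0.93, adjusted p = 0.0197) and TIMM44 (-0.73, adjusted p = 0.0296) were lost after the GC correction, at adjusted p of 0.0614 and 0.077.

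The other gene lists held almost no called member. MT2A, a metallothionein that binds zinc and copper, was the only called gene among 12 tested of the metallothionein list. It was at 4.53, 4.88 and 4.65 with S154A and 3.73, 3.77 and 4.02 with S154D, a difference of -0.84 (SE 0.13, adjusted p = 0.0219). Of all genes tested 0.329% were called lower and 8902 of 20357 estimates were negative. The list median was -0.33, with 11 of 12 estimates negative, 9 of 12 under median centring. The list also holds SLC30A1 (0.65, its only positive estimate) and MTF1 (-0.04), which are not metallothioneins. The metallothioneins are related genes, so their signs are not independent. The median probe GC of the list was 55%, against 45% over all genes, and after the GC correction the median was -0.28 with 10 of 12 negative. None was called among 10 protein kinase C genes (PRKCD at -0.36, adjusted p = 0.11), 21 of cholesterol synthesis and uptake, 15 of fatty acid synthesis, 17 of fatty acid oxidation, 30 of the unfolded protein response and its relatives, 18 of the NRF2 response, 17 heat shock, 21 immediate early and ERK feedback, 18 interferon-stimulated and 32 cell cycle genes. Of all genes tested 0.403% were called, so 0 calls in lists of this size are near that share. The list medians there ran from -0.09 for the stress response to 0.22 for the interferon-stimulated genes. JUN, at -1.08 (adjusted p = 0.43), and the aldehyde dehydrogenase ALDH3A1, at 1.79 (adjusted p = 0.13), had wide estimates that were not called.

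None of the tested markers of hepatocytes, enterocytes, leukocytes, epithelial cells, kidney tubule and fibroblast-like cells was called, where 0.403% of all genes tested were. The summed linear signal, in multiples of the 75th percentile, was 146 to 186 with S154A and 147 to 177 with S154D for the fibroblast-like list. Of its 8 markers, 6 were well above background on all 6 arrays, vimentin and fibronectin among them, and COL1A2 on none. The sum was 41.1 to 48.4 and 45.2 to 49.1 for kidney tubule, and 3.84 to 4.76 and 3.36 to 4.28 for hepatocyte markers. Of the 10 hepatocyte markers, ALB, SERPINA1, HP, CYP3A4 and CYP2E1 were well above background on all 6 arrays, and only APOB on none. The enterocyte markers CDX2 and APOA4 were also well above background on all 6, and FABP2 and SI on none. So were the leukocyte markers CD3E, CD14, ITGAM and LCP1, with PTPRC and CD74 on none. A reading well above background therefore does not establish a cell type here. The 6 epithelial markers, all well above background on all 6 arrays, summed to 125 to 131 with S154A and 97.9 to 113 with S154D. Their median log2 difference was -0.29, with 4 estimates negative and 2 positive. Of the 6, 4 had an unadjusted limma p under 0.05, against 4811 of all 20357 genes. The part of this in the results was not tested.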

How the data were processed

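Per the file headers, the deposited scanner files hold 1-colour intensity values, background-subtracted and detrended by Agilent Feature Extraction; the headers give version 9.5.3.1 and the submitters' processing notes version 12. The authors' series table holds the same intensities (540180 of 540180 values equal after rounding), so no scaling between arrays had been applied. The outlier and background flags in the deposited files are scores of 0 or 1 per spot.

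From log2 intensity the 75th percentile of all non-control spots was subtracted per array. Outlier spots (66 to 196 per array) were removed, 43376 spots averaged into 41000 probes, and 26901 probes kept that every array of some group read well above background. The brightest kept probe stood for each of 20357 gene names, 13536 with a symbol, as the array design writes them (ASS is now ASS1, OSTalpha SLC51A, CCDC37 CFAP100). All 12 arrays entered 1 model with a mean for each group in limma 3.58.1 in R 4.3.3 (8 residual and 2.3 prior degrees of freedom), two-sided, with Benjamini-Hochberg adjustment over all genes. The procedure was tested on simulated data with independent noise for each gene and array. The simulated calls held no slide or GC effect, so they cannot show how the calls here stand against the slide layout or the GC trend. "At least" folds set the dim group at the lowest signal well above background on each array.

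The comparison, the gene lists and the rule for naming genes were chosen with earlier results of these data known. Named were the 15 largest rises and falls among called genes with a symbol, FXR and its partners, FXR targets called or differing 2-fold, a few members of the other lists, and the 5 widest called differences of differences each way. Alternatives covered background, scaling, filter, probe choice, slide, replicate number, probe GC and each array left out. Sequences and coordinates come from the scanner files; the number of arrays limits the precision.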

Additional observations from a re-analysis of the deposited data

Results flagged for a closer look

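The difference between the mutants itself differed between CDCA and DMSO at 28 genes by the test of the difference of the differences. Among genes with a symbol, S154D minus S154A in CDCA less that in DMSO was -6.92 for FABP6, -3.15 for HRG, -2.36 for OSTalpha, -1.95 for RBP4 and -1.89 for DLX3. It was 1.57 for FBXO5, 1.21 for HMG4L and 0.91 for NCBP1. The sizes for FABP6 and HRG include groups not read well above background on all arrays. The DLX3 value rests on the brighter of 2 probes, which did not point the same way under CDCA. No gene of the 28 was called with slide as a fixed block, where 3058 genes had an unadjusted p under 0.05.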

How the results depend on the processing

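With 3 arrays per group, the slide layout and single arrays limit the counts. Of the 29 genes followed through all these settings where a test applied, no called gene changed sign. All 82 called genes kept their sign under each background and scaling choice, with the GC correction and with slide as a fixed block. The remaining settings were not checked for the other called genes. Against 82 genes called under CDCA, of which 42 differed 2-fold and 6 were FXR targets called lower, and 28 called for the difference of the differences, the counts were as follows. Quantile normalisation gave 203 called and 122 for the difference of differences; median centring 35, 27 at 2-fold and 9; no centring 9, 9 at 2-fold, 3 FXR targets, 2, and 1 gene in DMSO in place of 0. Without a filter 31 and 0 were called, and with probes well above background on all 12 arrays 145 and 131. An intensity trend gave 162 and 99. The 6 arrays alone gave 14, 14 at 2-fold and 3 FXR targets. Normexp background gave 44 for the difference of differences. Slide as a fixed block gave 3, 3 at 2-fold, 1 FXR target and 0, and with the GC correction 13, 12, 2 and 0; slide as a random block gave 15 for the difference of differences, and leaving out slide 4 gave 51 and 0. Leaving out 1 array gave 19 to 265 called, 18 to 73 at 2-fold, 5 to 6 FXR targets, 0 to 0 in DMSO and 0 to 66 for the difference of differences. The cause of these shifts was not tested.

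The replicate numbers did not pair the CDCA arrays: same-numbered arrays correlated at -0.06, -0.06 and 0.06 in their deviations, and other pairs at -0.14 to 0.14. Same-numbered DMSO arrays correlated at -0.04, 0.36 and 0.22 and other DMSO pairs at -0.34 to 0.14, so pairing was less clear there. The replicate block gave 53 genes called under CDCA and 6 for the difference of differences, which with the GC correction also was 6. Normexp background, whose offset compresses dim signals by construction, gave log2 differences of -6.70 for FABP6, -3.11 for FGF19, -1.78 for HRG, -1.32 for MYOM2, -1.0 for CCDC37, -0.99 for FETUB, -0.72 for WDFY4, -0.72 for DLX3 (no longer called, adjusted p = 0.0772) and -0.55 for OSTbeta. With the mean of all probes FGF19 was at -6.58 and DLX3 at -0.53.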
